A study of Mus musculus with 4 samples.

Results

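The genes described here are 10 genes of blood vessel endothelium, 6 coding for surface proteins and 4 for transcription factors. They are the VEGF receptor genes Kdr and Flt1, the Tie receptor genes Tek and Tie1, the adhesion genes Cdh5 and Pecam1, and the transcription factor genes Etv2, Sox7, Sox18 and Tal1. They were chosen by name, through the gene name or the transcript accession of each probe, and are 10 of 27573 genes and 19 of 41174 probes on the arrays. Etv2 carries its older symbol Etsrp71 on the array. All 10 had at least 1 probe well above background in both RNAs on all 4 arrays, so the tissue held transcripts of every gene of the set.

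The tissue was the posterior part of mouse embryos at 5 to 6 somites, cut at the boundary of the last somite. Cdx2+/-Cdx4-/- embryos, which carry 1 mutant Cdx2 copy and no intact Cdx4 copy, were compared with wildtype embryos. RNA of each genotype came from pools of 10 embryos, and the 4 Agilent arrays, all on 1 slide, each received both RNAs, one in Cy3 and one in Cy5. The labels name array 1 as replicate 1, array 2 as its dye swap, array 3 as replicate 2 and array 4 as its dye swap, without saying whether each replicate had its own pools. The p-values below therefore reflect how the hybridisations varied, which may be technical variation alone.

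In the early embryo, endothelial cells and blood cells arise from mesoderm that expresses Kdr. Etv2, an ETS factor, acts at the start of this step, and Tal1 acts with it in the choice between blood and vessel. Sox7 and Sox18 act in the vessels that form next, where VEGF and angiopoietin receptors, Cdh5 and Pecam1 mark the endothelial surface. Cdx factors are homeodomain proteins of the posterior body and are known to act on embryonic blood formation as well as on the body axis.

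The direction of the ratios is not settled by the labels. The Cy5 over Cy3 ratio of Cdx4 was -2.59, -2.11, 2.82 and 2.42 (log2) on arrays 1 to 4, although the labels swap the dyes between arrays 1 and 2 and between arrays 3 and 4. Over 21860 probes tested, the same ratio had a correlation of 0.82 between arrays 1 and 2 and of 0.87 between arrays 3 and 4, across genes, which are not independent replicates. Arrays 1 and 3, labelled with the same dye orientation, had a correlation of -0.43, as did arrays 2 and 4. Each array was therefore turned so that its Cdx4 ratio was negative, and the 2 RNAs are called the low-Cdx4 RNA and the high-Cdx4 RNA. An aligned ratio is low-Cdx4 over high-Cdx4. By the labels of arrays 1 and 4 that is Cdx2+/-Cdx4-/- over wildtype. By the labels of arrays 2 and 3 it is the reverse, and Cdx4 would then be higher in the Cdx4-/- tissue. Which gene moved with Cdx4 and which moved against it does not turn with these labels, whereas the genotype it is lower in does.

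The 4 aligned arrays were averaged into 2 replicates and fitted in limma with Benjamini-Hochberg adjustment over 14843 genes at a threshold of 0.05. In the labelled-number pairing, the arrays of 1 labelled replicate were averaged (arrays 1 and 2, and arrays 3 and 4). In the exchange pairing, arrays of opposite Cdx4 sign were averaged (arrays 1 and 3, and arrays 2 and 4), so that dye bias cancels in each mean. The mean ratio is the same in both and only its error differs. In the exchange pairing the moderated SE was the same for every gene (0.051). An adjusted p-value from that pairing therefore follows the size of the mean ratio and carries no spread of the gene's own arrays. Standard errors (SE) are moderated values, n = 2 labelled replicates, and printed adjusted p-values are from limma in the labelled-number pairing unless the exchange pairing is named. There too the SE of a gene was drawn mostly from the spread over all genes (25.73 prior degrees of freedom, median SE 0.099). These adjusted p-values therefore also follow mainly the size of the mean ratio. The SE can understate the gap between the 2 replicates of a gene. In the labelled-number pairing Cdx4 was 5.60-fold lower in the low-Cdx4 RNA, Cdx2 was at a log2 ratio of -0.54 and Cdx1 at 0.40. The alignment used Cdx4, so its ratio describes the alignment.

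Of the 10 endothelial genes, 5 were lower and 0 higher in the low-Cdx4 RNA in the labelled-number pairing, in which 4.44% of all genes were lower and 3.28% higher. They were Kdr, Etv2, Sox7, Sox18 and Tal1, with ratios between -0.97 and -0.40. With the sign turned, the same 5 are higher. The exchange pairing added Cdh5 and Flt1, for 7 lower and 0 higher, in a fit that calls 19.6% of all genes lower and 22.6% higher. The third possible pairing (arrays 1 and 4, and arrays 2 and 3) also gave 7 lower and 0 higher, with 25.3% of all genes lower and 30.1% higher. With the sign of the labels kept on every array, 0 of the 10 passed, as the arrays cancelled (0.09% of all genes lower and 0.0138% higher). Tek, Tie1 and Pecam1, each by its brightest probe, passed in neither. The median ratio of the 10 genes was -0.31, against 0.015 over all genes tested. All 4 transcription factor genes passed, and 1 of the 6 surface protein genes did.

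**Figure D1:**
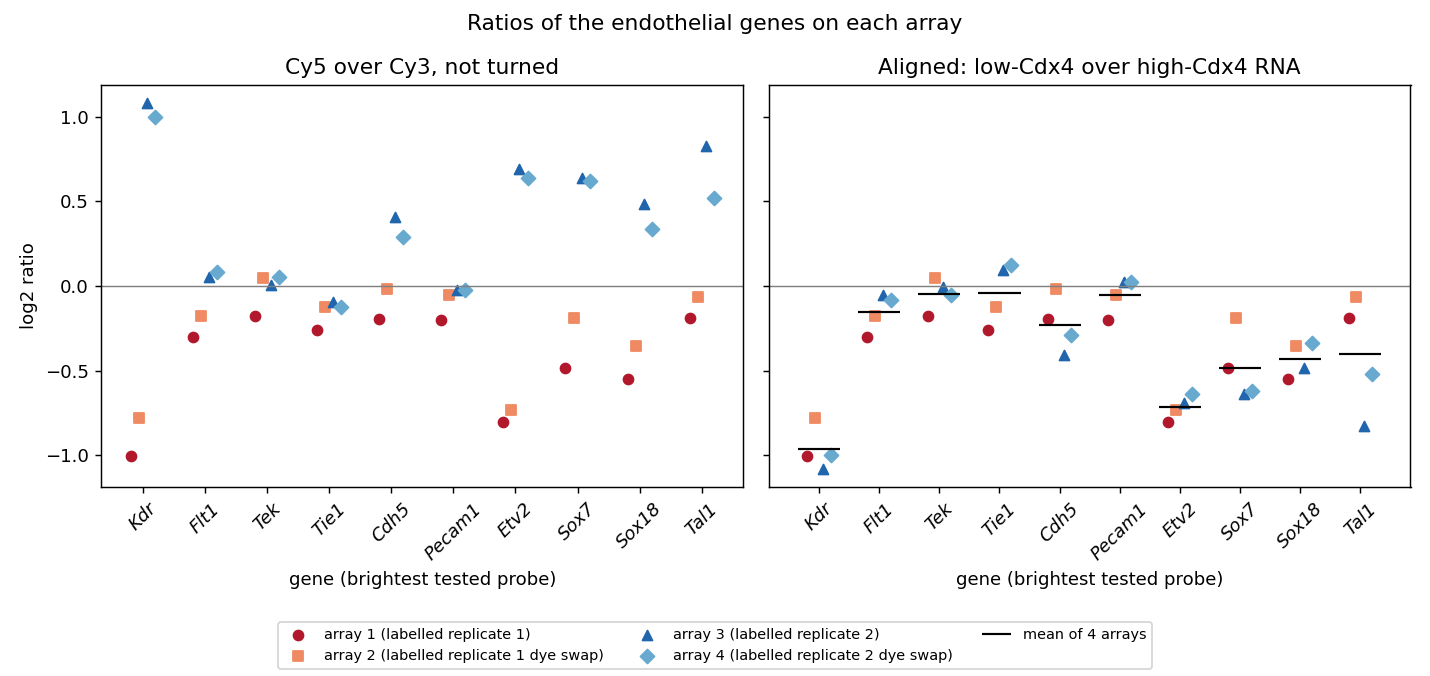
Log2 ratios of the 10 endothelial genes on each of 4 arrays, each gene by its brightest tested probe, as Cy5 over Cy3 (left) and aligned as low-Cdx4 over high-Cdx4 RNA (right), with the mean of 4 arrays as a bar. Kdr and Etv2 lie between -1.08 and -0.64 on every aligned array, while Tie1 and Pecam1 lie below 0 on all 4 arrays before alignment and on both sides of it afterwards.

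The 250 bases before the transcription start are shown for genes lower in the low-Cdx4 RNA and, for contrast, for Tie1, which did not pass. The sequences are from RefSeq on GRCm38.p6, 5′ to 3′ on the gene's strand, ending at the base before the start. Capitals mark GGAA or its reverse complement TTCC, the core of ETS factor sites, which include those of Etv2. A promoter entry was found for 6 of the 10 genes, in 7 windows (Tal1 has 2 starts).

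Kdr, chr5:75978456-75978705, minus strand: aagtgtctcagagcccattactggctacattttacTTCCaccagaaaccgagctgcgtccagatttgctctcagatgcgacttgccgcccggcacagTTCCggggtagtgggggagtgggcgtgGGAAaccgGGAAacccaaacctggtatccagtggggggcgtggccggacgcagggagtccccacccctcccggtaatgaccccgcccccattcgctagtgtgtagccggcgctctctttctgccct
Etv2, chr7:30635853-30636102, minus strand: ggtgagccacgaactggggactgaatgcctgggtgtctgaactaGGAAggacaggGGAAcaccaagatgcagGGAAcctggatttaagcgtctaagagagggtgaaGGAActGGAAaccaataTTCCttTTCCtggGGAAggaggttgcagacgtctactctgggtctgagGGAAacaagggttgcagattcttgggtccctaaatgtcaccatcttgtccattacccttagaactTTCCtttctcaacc
Tal1, first start, chr4:115056176-115056425, plus strand: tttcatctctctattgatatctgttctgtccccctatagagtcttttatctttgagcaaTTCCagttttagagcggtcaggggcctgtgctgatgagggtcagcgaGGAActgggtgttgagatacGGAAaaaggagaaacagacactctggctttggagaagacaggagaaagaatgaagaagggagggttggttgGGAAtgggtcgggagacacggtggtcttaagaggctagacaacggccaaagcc
Tal1, second start, chr4:115057561-115057810, plus strand: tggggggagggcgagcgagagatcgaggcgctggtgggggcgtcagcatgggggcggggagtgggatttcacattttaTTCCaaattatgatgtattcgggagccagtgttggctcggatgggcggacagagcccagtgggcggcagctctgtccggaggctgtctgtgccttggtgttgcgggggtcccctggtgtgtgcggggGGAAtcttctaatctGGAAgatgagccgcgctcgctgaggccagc
Tie1, chr4:118489850-118490099, minus strand: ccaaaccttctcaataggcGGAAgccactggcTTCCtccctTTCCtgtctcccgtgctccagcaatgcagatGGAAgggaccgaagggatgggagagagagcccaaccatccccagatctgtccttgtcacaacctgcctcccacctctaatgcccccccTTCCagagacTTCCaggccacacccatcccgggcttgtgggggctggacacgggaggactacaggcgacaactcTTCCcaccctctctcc

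Counted on both strands, GGAA occurred 4 times in the Kdr window, 10 times in that of Etv2, and 4 and 3 times in those of Tal1. It occurred 7 times in the Tie1 window, 4 times in that of Flt1 and 2 times in that of Tek. Of all 32851 windows of this length, 93.4% held it, with a median of 3 matches, so holding it sets none of these windows apart. TTTATG, a motif of caudal-type homeodomain proteins, was in 0 of the 7 windows and in 10.8% of all windows. The motif of GATA factors, written as AGATAA, was in the first Tal1 window and in 9.99% of all. CANNTG, the E-box bound by factors such as Tal1, was in the windows of Kdr, Tek and Tie1 and in 66.2% of all, and ACAAT, a SOX motif, was in that of Tek and in 27.7% of all. A match is a description of these letters and not a bound site. The windows ranged widely in base composition, with a GC content of 61.6% for Kdr, 48.8% for the first Tal1 window and 70.4% for Flt1, against a median of 52.4% over all windows.

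Kdr codes for the main signalling receptor for VEGF on endothelial cells and their progenitors. Its brightest probe lies on chromosome 5 at 76214981 to 76215040 (mm8) and is printed in 10 spots. Its log2 intensities were 10.79, 10.83, 10.64 and 10.60 in the low-Cdx4 RNA of arrays 1 to 4, against 11.79, 11.62, 11.72 and 11.60 in the high-Cdx4 RNA. The ranges did not overlap, and every array had the low-Cdx4 RNA lower. How many of all genes have ranges that do not overlap was not counted, so here and below this only describes the gene. The aligned ratios were -1.003, -0.784, -1.081 and -0.998, and their mean of -0.97 ± 0.10 (SE, n = 2, adjusted p = 1.77e-07) is a level 1.95-fold lower. Of 14843 genes tested, 11 had a lower ratio, and with the sign turned (0.97) the same 11 have a higher one.

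The repeat spots show how well a single array measured Kdr. On array 1 its 10 spots lay between -1.12 and -0.83, with an SD of 0.075 over the spots. On array 2 they lay between -0.86 and -0.67, on array 3 between -1.26 and -0.94, and on array 4 between -1.07 and -0.86. The highest of all 40 spots was -0.67. The mean of array 2 was closer to 0 than those of the other 3 arrays by more than the spread of its spots, so the arrays differed by more than the spots did. Spots of 1 array share 1 hybridisation and are not replicates of the RNA.

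A second Kdr probe, from clone AK054510, starts 28.33 kb away on chromosome 5 and is also printed in 10 spots. It was not well above background on any array in either RNA. Its mean signals were 98.9 to 107 units in Cy3 and 92.9 to 97.4 units in Cy5, against medians of 98.0 to 106 and 93.0 to 96.8 units for the negative control spots. It carries no measurement of Kdr, and its ratios near 0 are those of background.

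**Figure D2:**
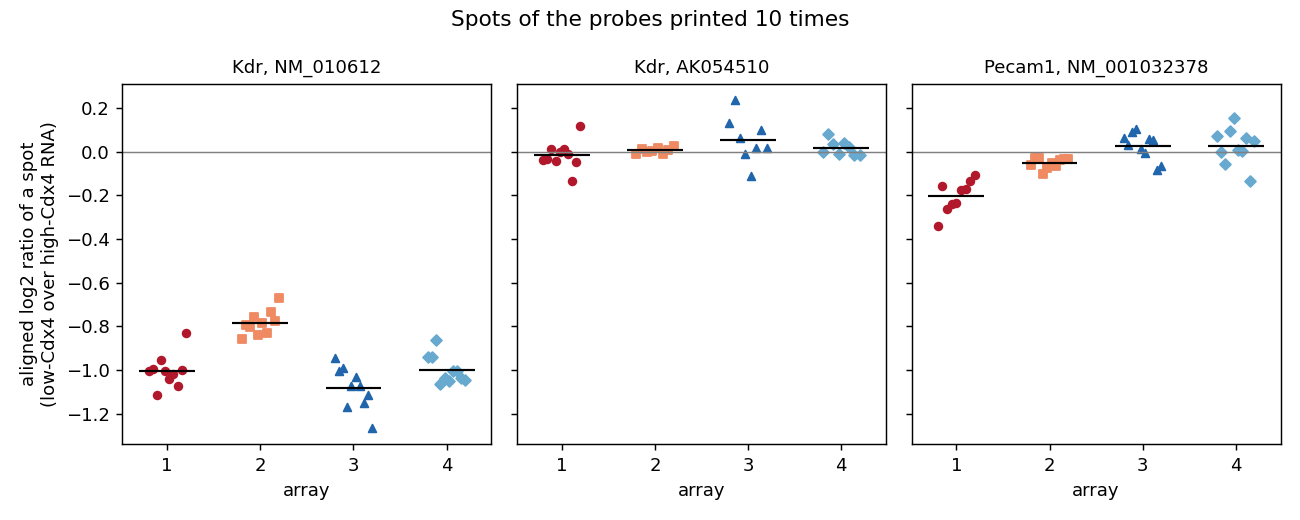
Aligned log2 ratio of each spot (points) of the 3 probes printed 10 times, by array, with the mean of the spots as a bar. All Kdr spots of accession NM_010612 reach at most -0.67, those of the background-level Kdr probe AK054510 lie around 0, and those of Pecam1 lie between -0.34 and 0.15.

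Flt1 codes for a VEGF receptor that binds the ligand tightly and is known to limit VEGF signalling. Its brightest probe (chromosome 5, 147872564 to 147872623) had log2 intensities of 10.12, 10.17, 10.27 and 10.26 in the low-Cdx4 RNA, against 10.42, 10.34, 10.32 and 10.34 in the high-Cdx4 RNA. The ranges did not overlap here either, and the sign was the same on every array, but the difference was small next to that of Kdr. The aligned ratios were -0.30, -0.18, -0.05 and -0.08, with a mean of -0.15 ± 0.10 (adjusted p = 0.451, and adjusted p = 0.0083 in the exchange pairing). Arrays 1 and 2 averaged -0.24 and arrays 3 and 4 averaged -0.07, so the ratio lay closer to 0 on the second pair.

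The other Flt1 probes differed from each other. One 75.99 kb away, from BC029674, averaged -0.17 and was below 0 on all 4 arrays. Another, 73 bases from the brightest probe and of the same accession NM_010228, averaged 0.00 with array values between -0.05 and 0.07. The probes of clones AK005502 and AK084177 were too dim to be tested. A change in Flt1 was thus not resolved, and the probes do not give 1 value.

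Tek codes for the angiopoietin receptor, and Tie1 for the related receptor that modulates it. For Tek (chromosome 4, 94366188 to 94366246), log2 intensities were 8.59, 8.74, 8.79 and 8.65 in the low-Cdx4 RNA, against 8.77, 8.70, 8.80 and 8.70 in the high-Cdx4 RNA. The ranges overlapped throughout, and the mean ratio was -0.05 ± 0.10 (adjusted p = 0.878). A Tek probe of clone AK053336, 132.374 kb away and dimmer, had aligned ratios of -0.17, -0.04, -0.71 and -0.38. Its mean of -0.32 was carried mainly by arrays 3 and 4, did not pass over all probes (adjusted p = 0.0919), and passed in the exchange pairing (adjusted p = 6.51e-09). No annotation of mm8 was used here, so whether that clone belongs to the Tek transcript is not known.

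Tie1 (chromosome 4, 117969459 to 117969518) had log2 intensities of 8.01, 8.06, 8.25 and 8.28 in the low-Cdx4 RNA, against 8.27, 8.18, 8.15 and 8.16 in the high-Cdx4 RNA. The low-Cdx4 RNA was lower on arrays 1 and 2 and higher on arrays 3 and 4. Its aligned ratios were -0.26, -0.12, 0.10 and 0.13, and their mean was -0.04 ± 0.10 (adjusted p = 0.902). Before alignment, Cy5 was below Cy3 on all 4 arrays. The aligned sign of Tie1 thus differed between arrays 1 and 2 and arrays 3 and 4, where dye orientation and labelled replicate cannot be told apart.

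Cdh5 codes for VE-cadherin, the cadherin of endothelial junctions. Its brightest probe (chromosome 8, 107033388 to 107033447) had log2 intensities of 9.09, 9.17, 8.96 and 9.09 in the low-Cdx4 RNA, against 9.29, 9.19, 9.37 and 9.38 in the high-Cdx4 RNA. The ranges of the 2 RNAs did not overlap, but the gap within array 2 was only 0.02. The aligned ratios were -0.20, -0.02, -0.41 and -0.29, with a mean of -0.23 ± 0.10 (adjusted p = 0.2, and adjusted p = 3.7e-05 in the exchange pairing). The second Cdh5 probe, 660 bases away, averaged -0.05 and was dimmer. The call therefore depends on the pairing and the probe.

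Pecam1 codes for the adhesion protein CD31 and is measured by a probe of 10 spots that the file places on chromosome 11 between 106497165 and 106499018. Its log2 intensities were 8.13, 8.14, 8.26 and 8.13 in the low-Cdx4 RNA, against 8.33, 8.19, 8.23 and 8.10 in the high-Cdx4 RNA. The ranges overlapped. The aligned ratios were -0.20, -0.05, 0.02 and 0.03, with a mean of -0.05 ± 0.10 (adjusted p = 0.867). As in Tie1, Cy5 was below Cy3 on all 4 arrays before alignment. The spread of the 10 spots within an array (SD between 0.02 and 0.08) was small enough that the difference between array 1 and arrays 3 and 4 is larger than it. The other Pecam1 probe, of clone AK031380, was too dim to be tested.

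Etv2 is the ETS transcription factor at the start of endothelial and blood development. Its probe (chromosome 7, 30342517 to 30342576) had log2 intensities of 11.61, 11.52, 11.58 and 11.51 in the low-Cdx4 RNA, against 12.41, 12.26, 12.27 and 12.14 in the high-Cdx4 RNA. No array of the low-Cdx4 RNA reached the lowest of the high-Cdx4 RNA. The aligned ratios of -0.80, -0.74, -0.69 and -0.64 had the smallest spread over arrays of the 5 genes that passed, with an SD of 0.069. Their mean of -0.72 ± 0.10 (adjusted p = 1.67e-05) is a level 1.64-fold lower, and 47 genes of 14843 had a lower ratio, or a higher one with the sign turned (0.72).

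Sox7 and Sox18 are related SOX factors of early endothelium. Sox7 (chromosome 14, 62904692 to 62904751) had log2 intensities of 9.26, 9.42, 9.12 and 9.24 in the low-Cdx4 RNA, against 9.75, 9.61, 9.75 and 9.86 in the high-Cdx4 RNA. The ranges did not overlap, and array 2 had the smallest gap. The aligned ratios were -0.49, -0.19, -0.64 and -0.62, with a mean of -0.48 ± 0.10 (adjusted p = 0.0028), or 1.40-fold lower. The second Sox7 probe, of clone AK009704 and 6.223 kb away, gave -0.43, -0.14, -0.64 and -0.43. Both probes thus had array 2 closest to 0, and the second also passed over all probes (mean -0.41, adjusted p = 0.0178).

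Sox18 (chromosome 2, 181599490 to 181599549) had log2 intensities of 9.43, 9.51, 9.47 and 9.60 in the low-Cdx4 RNA, against 9.98, 9.86, 9.96 and 9.94 in the high-Cdx4 RNA. The ranges did not overlap. The aligned ratios of -0.55, -0.35, -0.48 and -0.34 averaged -0.43 ± 0.10 (adjusted p = 0.00533), or 1.35-fold lower. Arrays 1 and 2 averaged -0.45 and arrays 3 and 4 averaged -0.41, so the value hardly moved with the pair of arrays.

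Tal1 codes for a basic helix-loop-helix factor needed for blood formation. Its probe (chromosome 4, 114569550 to 114569610) had log2 intensities of 9.72, 9.89, 9.61 and 9.69 in the low-Cdx4 RNA, against 9.91, 9.96, 10.44 and 10.21 in the high-Cdx4 RNA. The ranges did not overlap, but arrays 1 and 2 came close. The aligned ratios were -0.19, -0.06, -0.83 and -0.52, with a mean of -0.40 ± 0.11 (adjusted p = 0.0237), or 1.32-fold lower. With arrays 1 and 2 alone the ratio was -0.13 and with arrays 3 and 4 alone it was -0.67. The call ended with arrays 1 and 4 alone. It also ended when the tested probes of each gene were averaged in place of taking the brightest (adjusted p = 0.0708). Tal1 has a single probe, so its ratio stayed at -0.40 there and only the error and adjustment, which draw on all genes, differed. Of the 5 genes that passed, Tal1 rests most on which arrays are used.

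**Figure D3:**
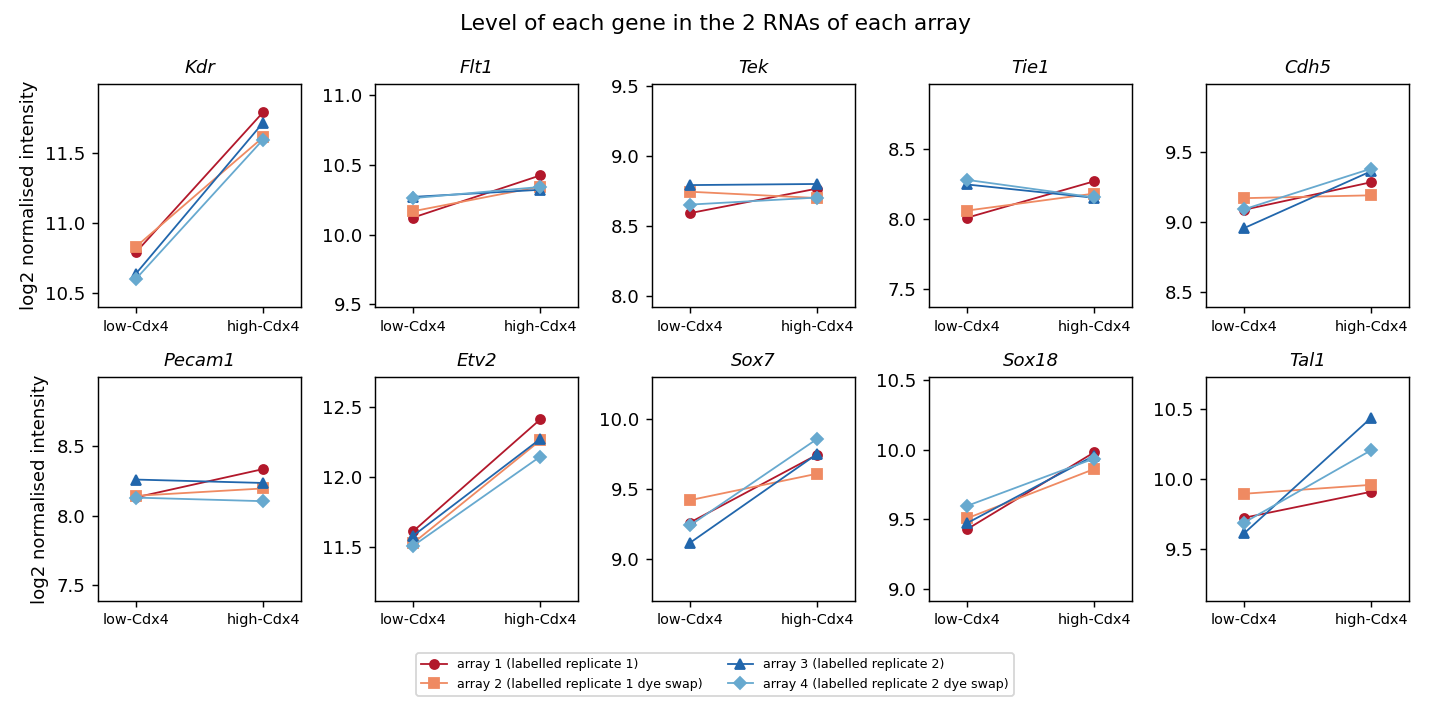
Log2 normalised intensity of the 10 endothelial genes in the low-Cdx4 RNA (left of each panel) and the high-Cdx4 RNA (right) of each array, joined by array. All panels span the same range around the mean of their gene. All 4 lines climb clearly for Kdr and Etv2, the lines of Tal1 differ in slope between arrays 1 and 2 and arrays 3 and 4, and those of Tie1 cross.

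The order of the ratios was Kdr, Etv2, Sox7, Sox18, Tal1, Cdh5, Flt1, Pecam1, Tek and Tie1, with Kdr the lowest. Neighbours from Sox7 to Tal1 differed by less than 1 SE, whereas Kdr and Etv2 differed by more than 2 SE of either gene. The SE of a difference between genes was not fitted, so this order was not tested. Kdr was the lower on all 4 arrays, though close to Etv2 on array 2 (-0.78 and -0.74). Of the 10 genes, 7 were below 0 on all 4 aligned arrays, against 19.6% of all genes, and none was above 0 on all 4, against 24.9%. The levels of different genes were not compared, since each probe has its own brightness.

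The arrays fall into 2 pairs by dye orientation, and the ratio of a gene can differ between them. Measured as the mean of arrays 1 and 2 minus that of arrays 3 and 4, divided by 2, this pair difference had a median size of 0.067 over all genes. It was 0.27 for Tal1, larger than in 97.7% of genes, 0.15 for Sox7 and 0.12 for Cdh5. It was -0.15 for Tie1, larger in size than in 84.6% of genes, and 0.07, -0.05 and -0.02 for Kdr, Etv2 and Sox18. The sizes of the Kdr, Etv2 and Sox18 ratios were thus at least 10 times their pair differences, and the Tie1 pair difference was larger than its ratio. By the labels each of these pairs is 1 replicate, and labelled replicate and dye orientation cannot be told apart here.

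**Figure D4:**
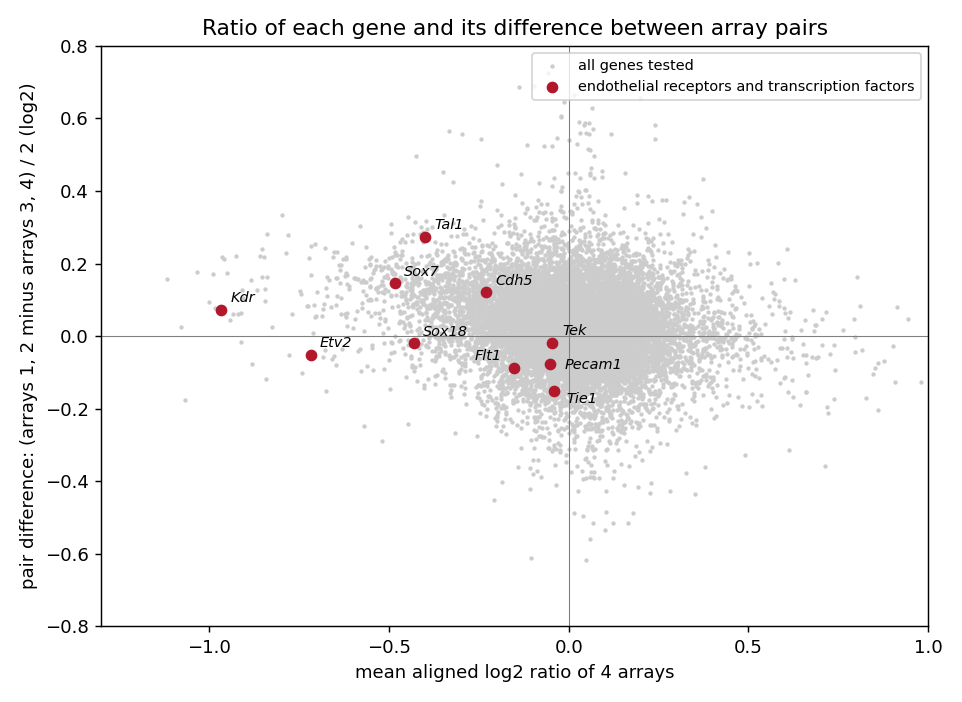
Mean aligned log2 ratio of each gene (x axis) and the pair difference between arrays 1 and 2 and arrays 3 and 4 (y axis, log2) for all genes tested (grey) and the 10 endothelial genes (red). Kdr and Etv2 lie far to the left and near 0 on the y axis, and Tal1 is the highest of the 10 on it. The plot leaves out 21 genes beyond its axes.

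Other genes of the VEGF pathway were examined beside the set, and with the sign turned the counts of lower and higher genes change places in each list that follows. Of 7 VEGF ligand and further receptor genes tested, 2 were lower and 0 higher, with a median ratio of -0.05. Vegfa, the VEGF ligand gene, fell (-0.40 ± 0.12, adjusted p = 0.0305), with -0.15 and -0.01 on arrays 1 and 2 and -0.79 and -0.64 on arrays 3 and 4, and its other probes were at -0.57 and -0.27. Nrp2, a co-receptor gene, fell by 0.32 on the log2 scale, alike on all arrays (adjusted p = 0.0439). Vegfc (-0.22, adjusted p = 0.212) and Pgf (0.05, adjusted p = 0.856), further ligand genes of the family, did not pass.

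Among 15 tested genes of the angiopoietin, Notch, BMP and apelin pathways of vessels, 2 were lower and 0 higher, with a median of -0.04. Hey1, a Notch target that codes for a repressor, was at -0.37 (adjusted p = 0.0176), and Jag1, a Notch ligand gene, at -0.35 (adjusted p = 0.0388). The apelin receptor gene Aplnr (0.30, adjusted p = 0.0809) and the BMP inhibitor gene Smad6 (-0.26, adjusted p = 0.117) did not pass, and the other Aplnr probe was at 0.08. Among 13 further endothelial surface and junction genes, 2 were lower and 1 higher, with a median of -0.15. Egfl7, a secreted endothelial protein gene, was at -0.39 (adjusted p = 0.012), and Rasip1, a regulator of vessel lumen formation, at -0.33 (adjusted p = 0.0428). The tight junction gene Cldn5 went the opposite way (0.34, adjusted p = 0.0301), and Arhgef15, a further endothelial gene, did not pass (-0.30, adjusted p = 0.0614).

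Among 16 other transcription factor genes of endothelium and blood, 3 were lower and 1 higher, with a median of -0.07. Hhex, a homeobox gene of early endothelium and endoderm, fell by 0.56 on the log2 scale on its brightest probe (adjusted p = 0.00109), while its other probe was at -0.11. Gata2 (-0.41, adjusted p = 0.00797), a GATA factor of blood progenitors, and Lyl1 (-0.39, adjusted p = 0.0117), a close relative of Tal1, also fell. Foxc1, a forkhead gene of mesoderm and vessels, rose to 0.46 ± 0.10 (adjusted p = 0.00284). In these endothelial lists, in the order given, 2 of 7, 2 of 15, 2 of 13 and 3 of 16 genes were lower. Each share is larger than the 4.44% of all genes lower in the labelled-number pairing. Higher were 0, 0, 1 and 1 genes, with 3.28% of all genes higher. The lists were chosen with earlier results of these data known, and their shares were not tested. Fitted over all probes, the brightest probes of Vegfa, Nrp2, Jag1 and Rasip1 did not pass (adjusted p = 0.0599, 0.0544, 0.0603 and 0.0572). Those of Hey1, Egfl7, Hhex, Gata2 and Lyl1 did, as did a further Vegfa probe (adjusted p = 0.00126).

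In the list of blood progenitor and erythroid genes, those that passed were globin genes and were higher in the low-Cdx4 RNA. Tal1, Gata2 and Lyl1, named above with endothelium and blood, stand in other lists and were lower. Of 17 blood progenitor and erythroid genes, 9 could be tested, of which 0 were lower and 3 higher, with a median of 0.04. These were the embryonic globin genes Hbb-bh1 (1.35 ± 0.10, adjusted p = 9.05e-10), Hba-x (1.12 ± 0.11, adjusted p = 8.86e-08) and Hbb-y (0.72 ± 0.11, adjusted p = 4.38e-05). Epor, the erythropoietin receptor gene, was at 0.28 and did not pass (adjusted p = 0.086). The further tested genes of the list lay between -0.18 and 0.04, and none passed in the labelled-number pairing. Gfi1, Gfi1b, Spi1, Ptprc, Gata1, Klf1 and Nfe2 were among those not well above background on all arrays in either RNA, so these regulators and markers have no value here.

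**Figure D5:**
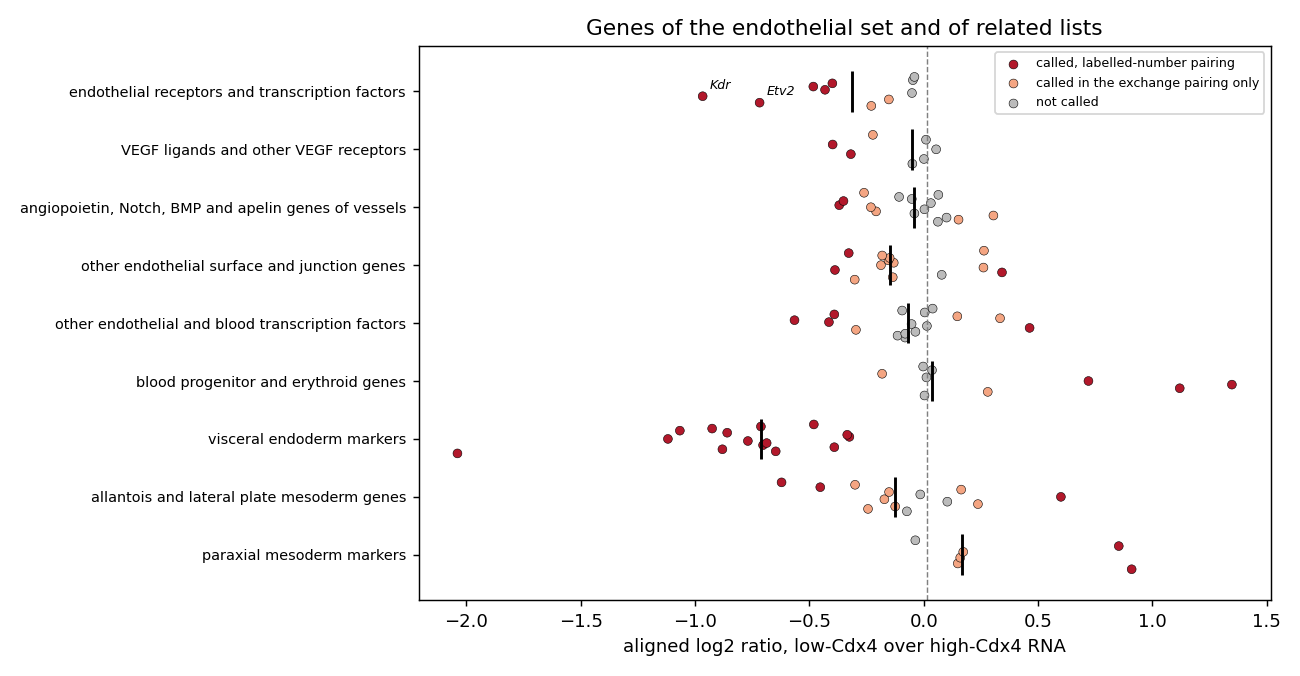
Aligned log2 ratio of each tested gene (points) in the set of 10 endothelial genes and in 8 related lists, with the list median as a bar and the median of all genes as a dashed line. The set has its median at -0.31, to the left of the other endothelial lists (-0.15 to -0.04), and the visceral endoderm markers have theirs at -0.71.

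Of the markers of other tissues, those of visceral endoderm moved with the endothelial genes, whereas the genes that passed in the mesoderm lists below were mixed or higher. Visceral endoderm is an extraembryonic epithelium on the outside of the early embryo and its yolk sac. All 15 of its 15 markers were lower in the low-Cdx4 RNA, each by its brightest probe, with a median ratio of -0.71. Further tested probes lay near 0 for Hnf4a (-0.03), Dab2 (-0.08) and 1 of those of Lrp2 (-0.17). The markers' mean log2 intensity lay between 10.43 and 10.47 in the low-Cdx4 RNA of the 4 arrays, against 11.14 and 11.33 in the high-Cdx4 RNA. None of the 15 was at background, and Afp (-2.04), Cubn (-1.12), Rbp4 (-1.07) and Spp2 (-0.93) were the lowest. Their part in the ratios of the endothelial genes was not tested. Fewer cells of a type and less RNA per cell cannot be told apart in pooled tissue of this kind.

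Of 13 allantois and lateral plate mesoderm genes, which mark tissue where posterior vessels form, 2 were lower and 1 higher, with a median of -0.12. Vcam1, an adhesion gene of the allantois, was at -0.62 (adjusted p = 0.000193) and the T-box gene Tbx2 at -0.45 (adjusted p = 0.00412). Itga4, whose product is an integrin subunit that binds Vcam1 protein, was at 0.60 (adjusted p = 0.000167), and Tbx4, an allantois gene, at -0.30 did not pass (adjusted p = 0.0608). The further probes of Vcam1 and Itga4 were all too dim to be tested, so each of these values rests on 1 probe. Of 6 tested paraxial mesoderm markers, 0 were lower and 2 higher, with a median of 0.17. These were the somite genes Meox1 (0.91 ± 0.10, adjusted p = 5.82e-07, and 0.52 on its other probe) and Tcf15 (0.85 ± 0.10, adjusted p = 1.3e-06). The presomitic genes Tbx6 (0.17) and Msgn1 (0.16) did not pass. The part of these 2 tissues in the endothelial ratios was not tested either.

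The exchange pairing, which calls 19.6% of all genes lower and 22.6% higher, gave larger counts in most lists. The lower and higher counts in it were 3 and 0 for the VEGF genes, 5 and 2 for the angiopoietin, Notch, BMP and apelin genes, 9 and 3 for the surface and junction genes and 4 and 3 for the other transcription factors. They were 1 and 4 for the blood genes, 15 and 0 for visceral endoderm, 7 and 3 for allantois and lateral plate, and 0 and 5 for paraxial mesoderm.

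The calls rest on the processing as follows. Where each array was centred on its median without loess, the median of all genes was 0.28 and that of the 10 endothelial genes -0.04, and no endothelial gene passed. The ratios were then closer to 0, at -0.56 for Kdr, -0.27 for Etv2, -0.21 for Sox7, -0.14 for Sox18 and -0.09 for Tal1. No endothelial gene passed either with scale normalization between arrays or with no filter on dim probes. Under scale normalization the ratios were -1.05 for Kdr, -0.84 for Etv2, -0.44 for Sox7, -0.47 for Sox18 and -0.31 for Tal1, and without the filter they were the same as with it.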

How the data were processed

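Total RNA was measured on 4 arrays of 2 colours. Each deposited scanner file gives the intensity of every spot in Cy3 and Cy5 as read by Agilent Feature Extraction (version 9.5.3), per the submitters' processing notes and the file headers. The deposited scanner files and the authors' series table also hold log10 ratios. The table equalled the scanner's ratio, with the sign turned for the 2 labelled dye swaps, for 100% of features (tolerance 1e-05) and had a median of 0 in each column.

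Background was corrected in limma 3.58.1 under R 4.3.3, using normexp on mean signals (offset 50), and loess within arrays followed, with control spots at weight 0. Outlier spots (103 to 167 per array) were left out and 0 to 7 saturated spots per channel kept. Log2 intensities per RNA were put on 1 scale between arrays with Aquantile. Per array and channel, 50.6% to 64.9% of spots exceeded background clearly, and the number of arrays limits the precision.

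A probe was tested if well above background on all 4 arrays in at least 1 RNA, and each gene was its brightest tested probe (15 of 19 endothelial probes were tested). Of all probes, 23374 were named by accession, 6733 by current symbol and 2919 by older symbol in a RefSeq table, and 8148 kept the file's name. Positions are those of the files (mm8).

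Named genes are the 10 endothelial genes, the 3 Cdx genes, and of each list up to 4 genes with the largest ratios by size. The genes, lists and alignment were chosen with earlier results of these data known. All arrays share 1 slide, so neither slide nor scan gave a batch to compare.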

Additional observations from a re-analysis of the deposited data

Results flagged for a closer look

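The aligned log2 ratio of Arhgef15 had 1 array far from the other 3, at -0.11 on array 2 against -0.39 to -0.36 on arrays 1, 3 and 4. Of 45 groups of 4 values examined it was the only one, and chance alone marks about 1 group in 20.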

How the results depend on the processing

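Of the endothelial genes, 5 were lower and 0 higher. The third pairing of arrays (1 with 4, 2 with 3), like the exchange pairing, gave 7 lower, while all genes called were 2903 lower and 3350 higher in the exchange pairing and 3755 and 4467 in the third, against 659 and 487 in the labelled-number pairing. With the sign turned, 0 were lower and 5 higher (Kdr 0.97, Etv2 0.72, Sox7 0.48, Sox18 0.43 and Tal1 0.40). With the sign of the labels the arrays largely cancelled: 0 endothelial genes passed, Tal1 was at 0.047, and 13 genes were lower and 2 higher. Endothelial calls numbered 0 as well with median centring (2 genes lower and 6 higher), scale normalization between arrays (0 lower and 0 higher in limma, with 1739 at an unadjusted p under 0.05) and no filter on dim probes (4 lower and 10 higher). The cause was not tested. The scanner's processed signals and the authors' series table each gave 1057 lower and 636 higher genes, with the same number of endothelial calls. In both, Tek, Tie1 and Pecam1 were at -0.15, -0.17 and -0.13 and did not pass. Chosen after seeing the data, arrays 1 and 4 alone gave 388 lower and 242 higher genes, and arrays 2 and 3 alone 325 and 280, with 4 and 5 endothelial genes lower. Without 1 labelled replicate, ratios ranged from -1.04 to -0.89 for Kdr, -0.77 to -0.67 for Etv2, -0.63 to -0.34 for Sox7, -0.45 to -0.41 for Sox18 and -0.67 to -0.13 for Tal1, with no test, since 1 replicate leaves no spread. No paired analysis was possible because all arrays form 1 group of ratios, each of which already pairs the RNAs within an array, and no second group shares the replicate numbers. Tie1, Pecam1, Tek and the further probes of Cdh5, Flt1, Sox7 and Tek were dim, and whether this limits their ratios was not tested. The further Sox7 probe passed over all probes although it was dim.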
